A study of Homo sapiens with 4 samples.

Results

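The genes described here are 43 genes of mitosis: the parts of the kinetochore, the spindle checkpoint proteins that sit on it, the chromosomal passenger complex, the mitotic kinases and cyclins, and a few spindle motors and chromosome proteins. They were taken by symbol from the 78932 gene rows of a count table, and all 43 were found and passed the filter on low counts, as did 18680 genes in all. The cells were RPMI 8226, an established human multiple myeloma line. They were collected 72 h after cells were transfected with an antisense oligonucleotide of LNA (locked nucleic acid) chemistry, a short modified DNA strand that lowers the RNA it pairs with. There were 2 groups of 2 libraries: Control LNA, whose dose is not stated separately in the labels, and an LNA against the long noncoding RNA LINC01432, at 50 nM. Each group had a single oligonucleotide (ASO1 for the control, ASO3 for LINC01432), and all libraries came from the same untagged line. Nothing in the labels says that the libraries of a group were separate cultures, so p-values measure a spread that may be technical. In bulk RNA, fewer cells in mitosis and less RNA per mitotic cell cannot be told apart.

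At the kinetochore, chromosomes attach to spindle microtubules. An inner layer of CENP proteins sits on centromeric chromatin, the outer KMN network (KNL1, the MIS12 complex and the NDC80 complex) binds microtubules, and the ROD-ZW10-ZWILCH (RZZ) complex builds the fibrous corona, which recruits dynein and the checkpoint proteins MAD1 and MAD2. Unattached kinetochores keep CDC20 from activating the anaphase-promoting complex. Most of these genes are transcribed from S phase to G2 and mitosis, so their summed RNA is commonly read as a sign of how many cells are cycling. Plasma cell tumours such as myeloma are mostly slow-growing in patients, whereas lines such as RPMI 8226 proliferate in culture.

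The targeted RNA was measured first. LINC01432 had 20.5 and 17.9 CPM (a gene's counts scaled to a common library size, with the TMM method of edgeR) in the control libraries and 8.97 and 9.88 CPM in the LINC01432 LNA libraries, a fall to 49.2% of control (edgeR adjusted p = 0.000228). The libraries held 20873393 to 29161298 gene counts, and 3 counts, taken as the floor, were worth 0.103 to 0.139 CPM. The 10 plasma cell markers were all detected, with a summed level of 2317 to 2651 CPM per library; CD38 was called higher with LINC01432 LNA, and TNFRSF17 and XBP1 lower. The 8 T and NK cell markers summed to 1.37 and 1.75 CPM in the controls and to 1.86 and 2.65 CPM in the LINC01432 LNA libraries. The 8 myeloid markers (LYZ and S100A8 at 0) summed to 4.83 and 5.08 CPM and to 5.95 and 7.91 CPM. The 8 fibroblast and endothelial markers, of which COL1A1 was called higher, summed to 4.22 and 4.56 CPM and to 6.09 and 7.31 CPM. These 3 sums were low, and higher in both LINC01432 LNA libraries than in either control. The 6 B cell markers, with CD22 at 0, summed to at most 29.1 CPM, and to 21.5 and 23.4 CPM in the LINC01432 LNA libraries, which lay below both controls. The 6 epithelial markers summed to 118 and 114 CPM and to 99.6 and 99.1 CPM, mostly from EPCAM and KRT18. The part of these markers in the results below was not tested.

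Across the 43 genes the main feature was a single large fall, that of ZWILCH, against small shifts elsewhere. With LINC01432 LNA, 6 genes fell and 1 rose at an adjusted p under 0.05 (edgeR quasi-likelihood test, Benjamini-Hochberg adjustment over all 18680 genes), and 36 were not called. The 6 that fell were ZWILCH, ZW10, NSL1, TTK, BUB1B and CENPI, and the 1 that rose was CCNA2. The falls were 14.0% of the 43 genes, where 4.37% of all tested genes fell, and the rise was 2.33%, where 7.50% of all tested genes rose. The median log2 fold change was -0.10 over the 43 genes and 0.01 over all tested genes, and 32 of the 43 lay below 0, against 48.1% of all tested genes. For 23 genes both LINC01432 LNA libraries lay below both controls (25.9% of all tested genes did so) and for 5 both lay above (28.2%).

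**Figure D1:**
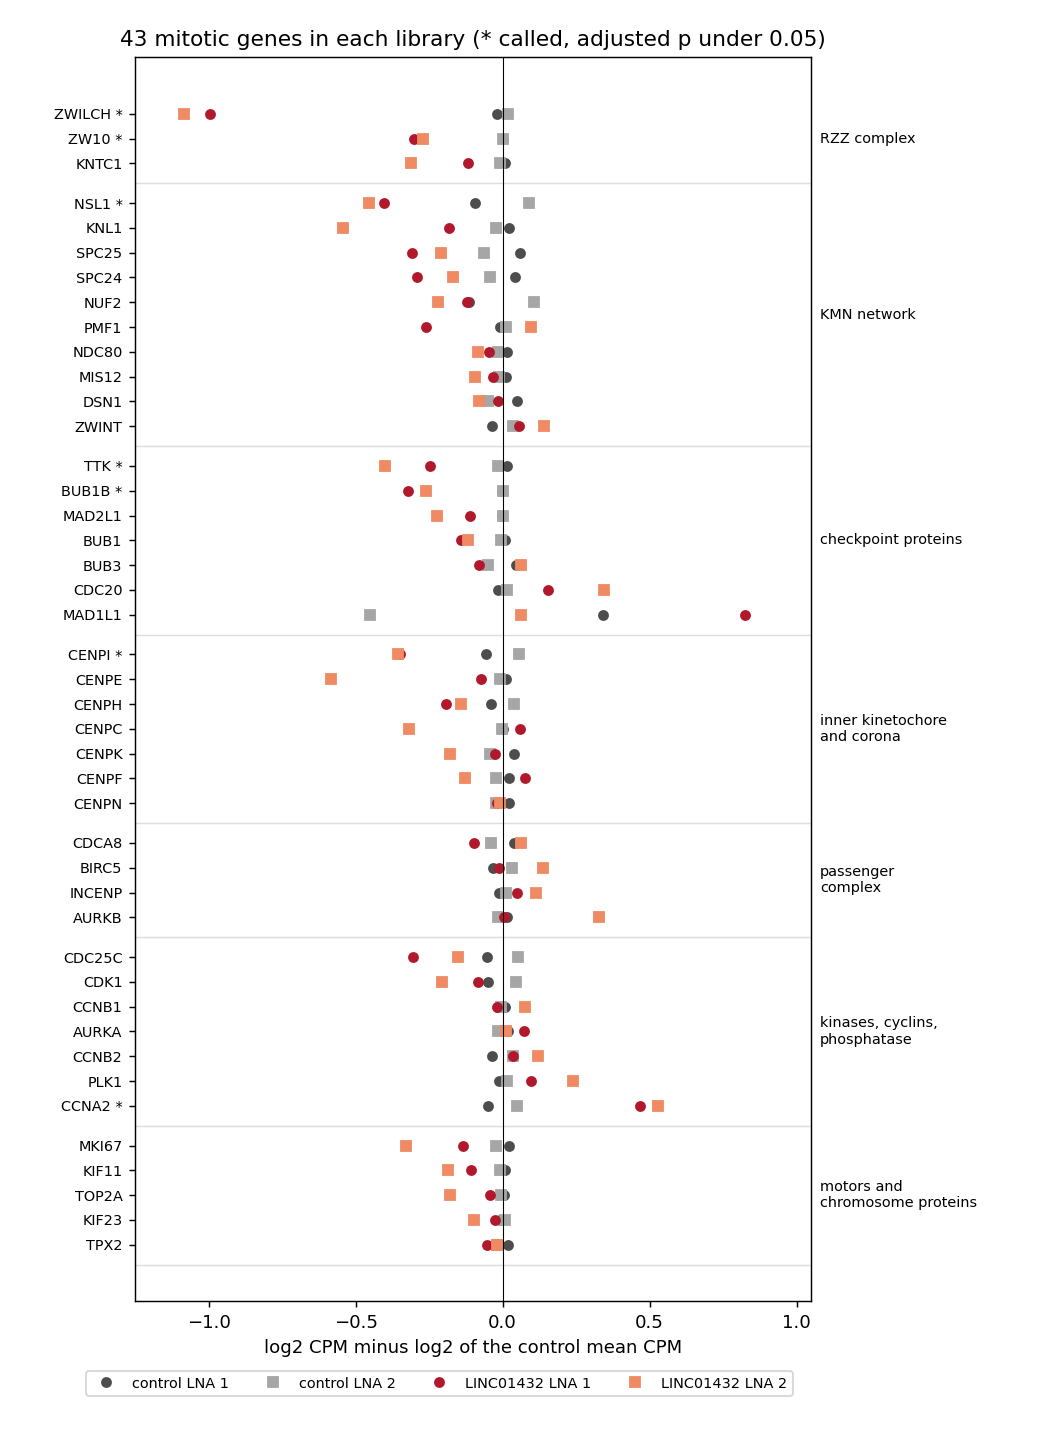
Log2 CPM of each of the 43 genes in each library, minus the log2 of the mean control CPM (x axis), with genes grouped by role (y axis); circles are replicate 1 and squares replicate 2, grey for control LNA and red or orange for LINC01432 LNA. ZWILCH stands apart on the left near -1, CCNA2 lies at about 0.5 on the right, and most other genes lie within 0.4 of the control mean.

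The RZZ complex held the largest change. ZWILCH (ENSG00000174442, chromosome 15 from 66504959 to 66550128 in GRCh38, plus strand), a structural subunit of the complex, was measured at 51.6 and 53.0 CPM in the control libraries and at 26.3 and 24.7 CPM in the LINC01432 LNA libraries. The groups were far apart, and the libraries of each group lay close together. ZWILCH thus fell to 48.7% of its control level (log2 fold change -1.04, standard error 0.08, edgeR adjusted p = 3.14e-05). ZW10 (ENSG00000086827), which links the complex to dynein and also serves in membrane traffic, had 48.6 CPM in both controls and 39.4 and 40.2 CPM with LINC01432 LNA. It fell to 82.1% of its control level (log2 fold change -0.29, standard error 0.08, edgeR adjusted p = 0.0391). KNTC1 (ENSG00000184445), which encodes ROD, the large scaffold subunit, had 85.4 and 84.5 CPM against 78.3 and 68.4 CPM. Its groups did not overlap either, but its log2 fold change of -0.21 was not called (edgeR adjusted p = 0.146). It was -0.33, and called, without LINC01432 LNA library 1 (edgeR adjusted p = 1.9e-05) and -0.13, not called, without library 2 (0.104).

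ZWILCH was therefore compared with the other subunits within each library, where library scaling cancels. The log2 CPM of ZWILCH minus that of ZW10 was 0.09 and 0.13 in the controls and -0.59 and -0.70 with LINC01432 LNA, a change of -0.75. ZWILCH was the higher of this pair in both controls and the lower in both LINC01432 LNA libraries. Against KNTC1 the difference was -0.73 and -0.67 in the controls and -1.58 and -1.47 with LINC01432 LNA, a change of -0.82. The groups did not overlap for either pair, and the exact two-sided permutation test gave p = 0.333 for each, the smallest value that 2 against 2 libraries allow. Per kilobase of exon the control level of ZWILCH was 10.8 CPM, between 16.2 for ZW10 and 7.50 for KNTC1.

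Counts of ZWILCH can be mixed with those of its neighbours, since the strand setting of the counting is not given: 10.9% of its exonic bases in GENCODE 29 overlap RPL4 or LCTL, both on the other strand. RPL4, a ribosomal protein gene, had 3419 and 3448 CPM in the controls and 3075 and 3227 CPM with LINC01432 LNA, and its log2 fold change of -0.12 was not called (edgeR adjusted p = 0.440). LCTL was near the floor, with 20 and 14 counts in the controls and 9 and 4 with LINC01432 LNA, and its log2 fold change of -1.16 was not called (edgeR adjusted p = 0.176). The next genes on the left, SNAPC5 and MAP2K1, had log2 fold changes of 0.02 and -0.02 and were not called (edgeR adjusted p = 0.929 and 0.927). The fall was called for ZWILCH and for none of these 4 neighbours. For LCTL this does not set the genes apart. Its log2 fold change of -1.16 was as low as the -1.04 of ZWILCH, and its counts were too few for a firm call.

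**Figure D2:**
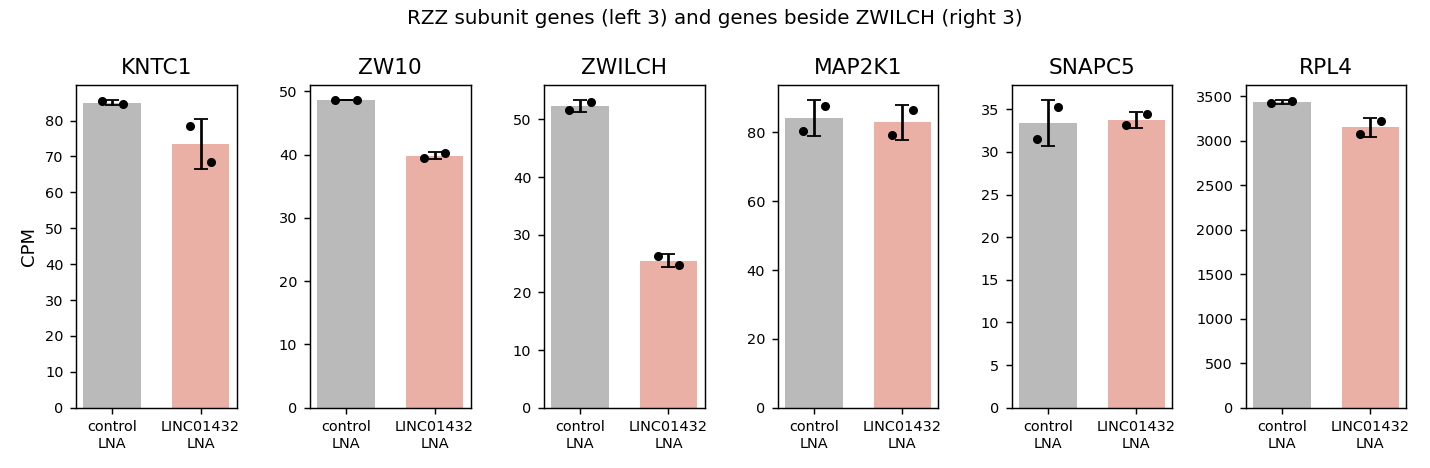
CPM (y axis, each panel with its own scale from 0) of the 3 RZZ subunit genes and of 3 genes beside ZWILCH on chromosome 15, in the control LNA and LINC01432 LNA groups; bars are means, error bars the SD over 2 libraries, and points the libraries. ZWILCH falls to about 48.7% of control, while MAP2K1, SNAPC5 and RPL4 are not called. LCTL, near the floor and with a log2 fold change of -1.16 that was not called, is not shown.

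The promoters of mitotic genes often carry CCAAT boxes, bound by NF-Y, and a cell cycle homology region (CHR), to which the DREAM and B-MYB complexes bind. RefSeq start sites (GRCh38.p14) were matched for 35 of the 43 genes, giving 42 windows of 250 bases before a start. The letters TTTGAA, a common form of the CHR, were found on either strand in 18 of the 42 windows (42.9%), against 13.3% of 35116 windows of all genes. The letters CCAAT were found on either strand in 31 of the 42 windows (73.8%), against 32.0% of all windows; neither motif holds the other, though their ends can share a letter. Of the 6 called genes with a window, 2 had the CHR letters (BUB1B and ZW10) and 2 the CCAAT letters (CCNA2 and ZW10), and of the 29 genes not called, 14 and 24 did. ZWILCH and NSL1, the genes with the largest falls, and CENPI had neither in this window, which says only that these letters are not there. Other forms of the CHR were not searched for, so a window without TTTGAA, such as that of CCNA2, may still hold one. The windows of ZWILCH, NSL1, ZW10, BUB1B and CCNA2 are shown because these genes were called, and that of the cyclin gene CCNB2 because it holds both motifs and was not called. That of CENPI, which lies well inside its gene in GENCODE 29, is not shown, and TTK was not matched. Each reads 5′ to 3′ on the strand of the gene and ends 1 base before the RefSeq start, with the motif letters (TTTGAA or CCAAT, read on either strand) in capitals. GENCODE 29 starts these genes farther upstream, so that the windows reach into its first exons or introns, and that of ZWILCH lies wholly inside the gene as drawn there. They lie at chr15:66505076-66505325, plus strand; chr1:212791778-212792027, minus strand; chr11:113773693-113773942, minus strand; chr15:40160819-40161068, plus strand; chr4:121823884-121824133, minus strand; and chr15:59104896-59105145, plus strand.
ZWILCH: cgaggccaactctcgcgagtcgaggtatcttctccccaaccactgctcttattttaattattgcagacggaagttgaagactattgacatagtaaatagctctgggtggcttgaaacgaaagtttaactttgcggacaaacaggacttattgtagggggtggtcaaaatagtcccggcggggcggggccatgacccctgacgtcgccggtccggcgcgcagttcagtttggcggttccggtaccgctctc
NSL1: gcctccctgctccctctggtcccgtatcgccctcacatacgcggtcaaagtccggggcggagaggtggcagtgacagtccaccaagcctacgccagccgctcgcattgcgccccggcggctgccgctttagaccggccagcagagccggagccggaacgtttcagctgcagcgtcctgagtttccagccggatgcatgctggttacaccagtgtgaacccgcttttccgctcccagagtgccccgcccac
ZW10: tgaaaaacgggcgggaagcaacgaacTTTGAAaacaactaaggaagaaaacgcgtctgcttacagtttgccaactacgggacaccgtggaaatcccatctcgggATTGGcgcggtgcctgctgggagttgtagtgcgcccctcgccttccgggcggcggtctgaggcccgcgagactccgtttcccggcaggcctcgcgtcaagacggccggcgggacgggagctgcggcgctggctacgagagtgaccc
BUB1B: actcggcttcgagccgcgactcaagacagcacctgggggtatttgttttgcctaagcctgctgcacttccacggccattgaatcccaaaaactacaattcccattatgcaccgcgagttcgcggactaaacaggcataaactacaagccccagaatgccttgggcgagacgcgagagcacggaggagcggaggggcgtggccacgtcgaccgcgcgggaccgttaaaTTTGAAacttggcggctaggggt
CCNA2: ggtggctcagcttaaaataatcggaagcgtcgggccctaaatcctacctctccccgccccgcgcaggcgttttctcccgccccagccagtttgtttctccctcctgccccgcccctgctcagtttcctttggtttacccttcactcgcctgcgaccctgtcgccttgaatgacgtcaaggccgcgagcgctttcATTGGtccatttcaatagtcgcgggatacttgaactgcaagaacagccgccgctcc
CCNB2: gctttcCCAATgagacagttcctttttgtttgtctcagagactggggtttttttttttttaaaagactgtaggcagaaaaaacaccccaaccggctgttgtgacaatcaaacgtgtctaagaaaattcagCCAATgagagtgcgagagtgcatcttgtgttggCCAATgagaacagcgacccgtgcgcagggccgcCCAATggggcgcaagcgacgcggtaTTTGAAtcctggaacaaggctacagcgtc
The CHR letters lie from 23 to 18 bases before the start of BUB1B, from 29 to 24 before that of CCNB2 and, much farther away, from 224 to 219 before that of ZW10. CCNB2 also has CCAAT letters at 4 places. The CCAAT letters of CCNA2 lie from 56 to 52 bases before its start.

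The KMN network was taken here together with ZWINT, described below. Of these 10 genes 1 fell (10%, against 4.37% of all tested genes) and none rose (against 7.50%). Their median log2 fold change was -0.12. NSL1 (ENSG00000117697), a subunit of the MIS12 complex that ties the outer kinetochore to the inner one, had 26.3 and 29.9 CPM in the controls and 21.2 and 20.5 CPM with LINC01432 LNA. It fell to 74.3% of its control level (log2 fold change -0.43, standard error 0.10, edgeR adjusted p = 0.0137). The other MIS12 complex genes were not called: MIS12, DSN1 and PMF1 had log2 fold changes of -0.06, -0.05 and -0.07, with edgeR adjusted p of 0.767 or more. The LINC01432 LNA libraries of PMF1 lay on either side of its controls, with 28.7 and 36.8 CPM against 34.2 and 34.7 CPM. Of the exonic bases of PMF1, 23.3% overlap the readthrough gene PMF1-BGLAP. KNL1, the scaffold on which BUB1 and BUB1B are recruited, had 44.0 and 42.6 CPM against 38.2 and 29.7 CPM. The LINC01432 LNA libraries lay well apart from each other, and its log2 fold change of -0.35 was not called (edgeR adjusted p = 0.0609). It was -0.56, and called, without LINC01432 LNA library 1 (edgeR adjusted p = 1.72e-08) and -0.20, not called, without library 2 (0.0590). NDC80, the microtubule-binding subunit after which its complex is named, had 44.0 and 43.2 CPM against 42.2 and 41.2 CPM, a log2 fold change of -0.07 (edgeR adjusted p = 0.678). Its partners NUF2, SPC24 and SPC25 had log2 fold changes of -0.17, -0.23 and -0.26 and were not called either. ZWINT, which binds KNL1 and helps to bring the RZZ complex to the kinetochore, had 53.3 and 55.8 CPM in the controls and 56.7 and 60.1 CPM with LINC01432 LNA, a log2 fold change of 0.10 (edgeR adjusted p = 0.493). It was the 1 gene of these 10 with a value above 0.

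Of the 7 checkpoint genes 2 fell (28.6%, against 4.37% of all tested genes) and none rose (against 7.50%). Their median log2 fold change was -0.13. BUB1B (ENSG00000156970), which encodes BUBR1, a part of the complex that blocks CDC20, had 80.1 and 80.4 CPM in the controls and 64.2 and 67.0 CPM with LINC01432 LNA. It fell to 81.8% of its control level (log2 fold change -0.29, standard error 0.08, edgeR adjusted p = 0.0327). Of its exonic bases 10.2% overlap the readthrough gene BUB1B-PAK6. TTK (ENSG00000112742), the kinase MPS1 that starts checkpoint signalling at KNL1, had 25.2 and 24.7 CPM against 21.0 and 18.9 CPM, and fell to 79.9% (log2 fold change -0.32, standard error 0.09, edgeR adjusted p = 0.0439). MAD2L1, which encodes MAD2, had 33.2 and 33.3 CPM against 30.8 and 28.5 CPM, a log2 fold change of -0.17 (edgeR adjusted p = 0.257). BUB1 and BUB3, partners in recruiting BUBR1, had log2 fold changes of -0.13 and -0.01. CDC20, the target of the checkpoint, had 219 and 224 CPM against 246 and 281 CPM, a log2 fold change of 0.25 that was not called (edgeR adjusted p = 0.0851) and was 0.089 and 0.15 after the GC corrections described below. MAD1L1, which encodes MAD1, had only 17 to 36 counts per library, or 0.691 to 1.67 CPM, the lowest value of the 43 genes. The annotation used for counting was not given, so this is the value of its row and may not be the level of the gene. Its log2 fold change of 0.45 had a standard error of 0.37 and was not called (edgeR adjusted p = 0.504), and a change of that size was not detectable at this depth.

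Of the 7 inner kinetochore and corona genes 1 fell (14.3%, against 4.37% of all tested genes) and none rose (against 7.50%). Their median log2 fold change was -0.12. CENPI (ENSG00000102384, chromosome X), which forms a subcomplex with CENPH and CENPK, had 18.2 and 19.7 CPM in the controls and 14.9 and 14.8 CPM with LINC01432 LNA. It fell to 78.4% (log2 fold change -0.35, standard error 0.10, edgeR adjusted p = 0.0382). CENPH and CENPK had log2 fold changes of -0.16 and -0.10 and were not called. CENPC, which bridges centromeric chromatin and the MIS12 complex, had 11.9 CPM in both controls and 12.4 and 9.57 CPM with LINC01432 LNA, so its groups overlapped. CENPE, a kinesin of the corona, had 18.8 and 18.6 CPM against 17.8 and 12.5 CPM, and its log2 fold change of -0.31 was not called (edgeR adjusted p = 0.188). It was -0.60, and called, without LINC01432 LNA library 1 (edgeR adjusted p = 2.5e-06) and -0.090, not called, without library 2 (0.624). CENPF, another corona protein, and CENPN, which reads the centromeric nucleosome, had log2 fold changes of -0.02 and -0.01.

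None of the 4 chromosomal passenger genes was called, where 4.37% of all tested genes fell and 7.50% rose. AURKB, the kinase that corrects faulty attachments, had 79.7 and 78.1 CPM in the controls and 79.2 and 99.0 CPM with LINC01432 LNA (log2 fold change 0.18, edgeR adjusted p = 0.316). INCENP, the scaffold of the complex, BIRC5, which encodes survivin, and CDCA8, which encodes borealin, had log2 fold changes of 0.08, 0.07 and -0.02. Their edgeR adjusted p were 0.575, 0.687 and 0.942.

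Among the 7 kinase, cyclin and phosphatase genes 1 rose (14.3%, against 7.50% of all tested genes) and none fell (against 4.37%). CCNA2 (ENSG00000145386, chromosome 4 from 121816444 to 121823933, minus strand), which encodes cyclin A, the partner of CDK2 in S phase and of CDK1 in G2, had 79.6 and 85.3 CPM in the controls and 114 and 119 CPM with LINC01432 LNA. It rose 1.41-fold (log2 fold change 0.50, standard error 0.08, edgeR adjusted p = 0.00214), and its groups were well apart. The genes of cyclin B were not called: CCNB1 had 261 and 259 CPM against 256 and 274 CPM, and CCNB2 114 and 120 CPM against 120 and 127 CPM, with log2 fold changes of 0.03 and 0.08. CDK1, their kinase, had 37.4 and 40.0 CPM against 36.5 and 33.6 CPM, a log2 fold change of -0.14 (edgeR adjusted p = 0.346). PLK1, which drives mitotic entry and spindle assembly, had 337 and 344 CPM against 364 and 402 CPM, a log2 fold change of 0.17 (edgeR adjusted p = 0.231). AURKA, the centrosomal Aurora kinase, and CDC25C, the phosphatase that activates CDK1, had log2 fold changes of 0.04 and -0.22 and were not called. Of the exonic bases of CCNA2, 9.08% overlap EXOSC9. Exons of CENPN (22.8%), PLK1 (12.5%), MIS12 (9.53%) and CDC25C (8.78%) also overlap other genes, as do, by less than 4% each, those of KIF23, SPC24, MAD2L1 and NUF2.

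None of the 5 motor and chromosome genes was called, and all 5 values lay below 0. Of all tested genes 4.37% fell, 7.50% rose and 48.1% had a log2 fold change below 0. MKI67, which encodes the proliferation marker Ki-67, had 398 and 386 CPM in the controls and 357 and 312 CPM with LINC01432 LNA (log2 fold change -0.23, standard error 0.09, edgeR adjusted p = 0.126). TOP2A, which untangles sister chromatids, had 225 and 223 CPM against 218 and 198 CPM (log2 fold change -0.11, edgeR adjusted p = 0.461). The values were -0.14 for KIF11, the motor that separates spindle poles, -0.06 for KIF23, a cytokinesis motor, and -0.04 for TPX2, the activator of Aurora A. Per kilobase of exon the highest control levels of the 43 genes were those of CDC20 (109 CPM) and CCNB1 (102 CPM), and the lowest were those of CENPC (1.38 CPM) and, with the doubt about its counting given above, MAD1L1 (0.131 CPM).

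The called genes were all of low GC content. Exon GC content could be computed for all 43 genes; their median was 42.1%, against 48.5% for the 17060 tested genes with a value, and 34 of the 43 lay below that second median. Below that median 7.20% of the tested genes fell and 2.54% rose, with a median log2 fold change of -0.08. All 7 called mitotic genes lay there, where the 34 mitotic genes had a median of -0.14. At or above it 2.18% fell and 13.3% rose, with a median of 0.11, and the 9 mitotic genes there had a median of 0.08 with none called. The mitotic genes were not evenly placed below the median. Of 10 equal GC classes, the lowest held 11 of them and the next 9. The medians of all tested genes in these classes were -0.14 and -0.10. Across the 43 genes Spearman's rho between GC content and log2 fold change was 0.56, as a description of genes that share the same 4 libraries, and across all tested genes it was 0.39.

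**Figure D3:**
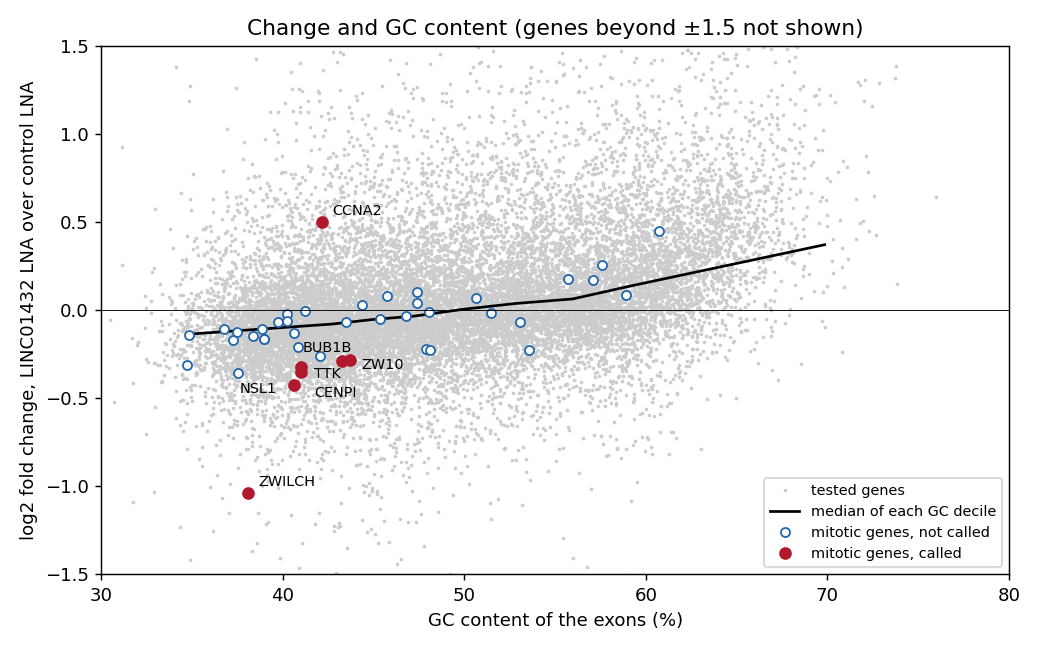
Log2 fold change of LINC01432 LNA over control LNA (y axis, shown from -1.5 to 1.5) against the GC content of a gene's exons in percent (x axis); grey points are tested genes, the line joins the medians of 10 equal GC classes, and circles are the 43 mitotic genes, filled where called. Most mitotic genes lie near the line, while ZWILCH lies far below it and CCNA2 far above.

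After a correction for GC content the fall of ZWILCH and the rise of CCNA2 were called, and most small falls were not. The trend of log2 CPM on GC was subtracted within each library, either from the levels or, in an alternative chosen after seeing the data, from each library's deviation from the mean of all libraries. ZWILCH was then at -0.93 and -0.91 (edgeR adjusted p = 0.000142 and 0.000138), CCNA2 at 0.55 and 0.59 (0.00169 and 0.00112) and NSL1 at -0.35 and -0.33 (0.0270 and 0.0380). ZW10, BUB1B, TTK and CENPI lay between -0.28 and -0.21 and missed the threshold, with edgeR adjusted p of 0.0535 to 0.0978. SPC24 was called in both (-0.32 and -0.27; edgeR adjusted p = 0.0181 and 0.0352), so that 3 of the 43 genes fell in each, where 8.02% and 5.72% of all tested genes fell. CCNA2 was the 1 that rose in each, where 4.38% and 5.32% of all tested genes rose. The median of the 43 genes moved to -0.03 and, in the second form, to 3.4e-05. Over all tested genes with a GC value the medians were -0.04 and -0.00094.

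Calls of the small changes also depended on the tool and on which libraries were kept. DESeq2 called 3 genes lower (ZWILCH, NSL1 and BUB1B; 4.97% of the genes it gave an adjusted p) and 1 higher (CCNA2; 7.61%). Scaling by library totals alone gave 4 lower (3.47% of all genes) and 2 higher (6.66%), the second being CDC20. Without control library 2 ZWILCH (log2 fold change -1.03) and CCNA2 (0.54) were the 2 genes called, and without control library 1 ZWILCH (-1.07) and NSL1 (-0.54) were. Of all tested genes 3.98% rose and 1.29% fell without control library 2, and 2.82% and 0.996% without control library 1. The spread in such a fit comes from the LINC01432 LNA pair alone, on the assumption that the lone control varies like it. CCNA2 without control library 1 was at 0.43 (edgeR adjusted p = 0.165) and NSL1 without control library 2 at -0.35 (0.260). Without LINC01432 LNA library 1, 18 of the 43 genes fell and 4 rose, and without library 2, 11 fell and 2 rose. These included CDC20 (0.33 and 0.14) and MKI67 (-0.35 and -0.15), called in both of these fits. In those fits 13.1% and 12.1% of all tested genes fell and 13.3% and 9.50% rose. ZWILCH was called in all 14 alternatives tried, from -1.10 to -0.91.

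**Figure D4:**
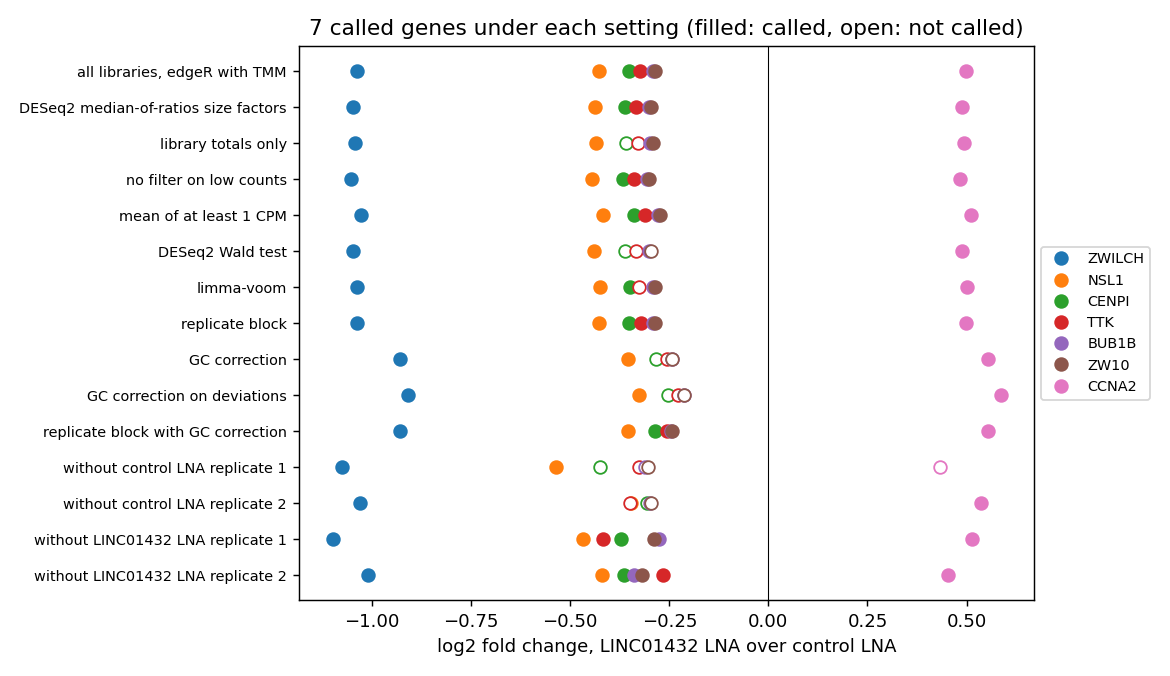
Log2 fold change (x axis) of the 7 called genes under the edgeR fit of all libraries and each of 14 alternatives (y axis); filled points were called at an adjusted p under 0.05 and open points were not. ZWILCH is filled throughout, CCNA2 and NSL1 are open in 1 alternative each, and ZW10, BUB1B, TTK and CENPI are open in 4 to 7.

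Further genes of mitosis and of S phase were taken from 10 other lists. Of their 174 tested genes 14 fell (8.05%) and 9 rose (5.17%), with a median log2 fold change of -0.08, against 4.37% and 7.50% of all tested genes. In a list of 19 RZZ partners, dynein genes and partners of ZW10 outside mitosis 4 fell (21.1%) and none rose. They were the dynein genes PAFAH1B1 and DYNC1I2 and the ZW10 partners NBAS and STX18. SPDL1, which encodes Spindly, the adaptor between RZZ and dynein, had 20.4 and 19.7 CPM against 18.6 and 17.5 CPM and was not called (edgeR adjusted p = 0.359). PAFAH1B1, which encodes LIS1, a dynein regulator, fell from 91.5 ± 1.62 to 59.4 ± 2.75 CPM (mean ± SD, n = 2; log2 fold change -0.62, edgeR adjusted p = 0.000550). DYNC1I2, a dynein intermediate chain, fell to 82.0% of control (edgeR adjusted p = 0.0466) and was not called after either GC correction (0.128 and 0.178). Outside mitosis ZW10 is part of the NRZ complex, which tethers vesicles at the endoplasmic reticulum. Of its 5 partners there, which are part of that list, 2 fell (40%, against 4.37% of all tested genes) and none rose. NBAS fell from 103 ± 2.68 to 76.9 ± 4.26 CPM and the SNARE gene STX18 from 23.3 ± 2.60 to 14.1 ± 1.70 CPM (edgeR adjusted p = 0.00589 and 0.00218). RINT1, USE1 and BNIP1 were not called. Part of the exons of STX18 (5.21%) and of PAFAH1B1 (12.4%) overlap other genes.

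The counts in these lists stand beside 4.37% of all tested genes that fell and 7.50% that rose. Among 17 other inner kinetochore genes 1 rose and 1 fell (5.88% each). The gene that rose was CENPB, which binds centromeric DNA (1.23-fold, edgeR adjusted p = 0.0352). CENPB has an exon GC content of 66.2%, and its log2 fold change of 0.29 turned to -0.27 after the first GC correction and was called as a fall (edgeR adjusted p = 0.0266), and to -0.19, not called, after the second (0.0810). Of 9 genes of the SKA complex and microtubule attachment 2 fell (22.2%) and none rose. They were CKAP5 (log2 fold change -0.36) and CLIP1 (-0.52), both microtubule tip proteins. Of 18 genes of the anaphase-promoting complex and its regulators 1 fell (5.56%) and 2 rose (11.1%). ANAPC16 fell (-0.31), and the E2 enzyme gene UBE2S (0.45) and the coactivator gene FZR1 (0.40) rose. FZR1, with a GC content of 63.7%, was at -0.03 and 0.04 after the GC corrections, not called. Of 13 cohesin and separase genes 1 fell (7.69%), namely PDS5B (-0.27). Of 24 tested spindle and cytokinesis genes 1 fell (4.17%), namely SPAG5 (-0.46). No gene rose in the cohesin and separase list or in the spindle and cytokinesis list. Of 8 condensin genes and 7 tested checkpoint silencing genes none was called.

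Of 29 genes that control entry into mitosis 2 rose (6.90%) and 1 fell (3.45%), where 7.50% and 4.37% of all tested genes did. PKMYT1, the kinase that holds CDK1 inactive, rose from 191 ± 17.8 to 348 ± 37.1 CPM (SD, n = 2; log2 fold change 0.87, edgeR adjusted p = 0.000270). After GC correction it was at 0.42 and 0.48, still called, and 31.6% of its exonic bases overlap KREMEN2 or PAQR4. CDKN1A, which encodes the CDK inhibitor p21, rose from 24.6 ± 0.187 to 34.0 ± 2.94 CPM (log2 fold change 0.47, edgeR adjusted p = 0.00673). ARPP19, an inhibitor of the phosphatase PP2A-B55 in mitosis, fell to 78.2% of control (edgeR adjusted p = 0.0228). Of 30 genes of G1/S and S phase 4 rose (13.3%) and 3 fell (10%), against the same 7.50% and 4.37% of all tested genes, with a median of -0.08. The uracil-DNA glycosylase gene UNG rose 1.34-fold, and the origin licensing factor CDT1 was at 0.66 before and at 0.17 (not called) and 0.24 (called) after the GC corrections. The DNA polymerase gene POLA1 fell to 75.7% of control (edgeR adjusted p = 0.00806).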

How the data were processed

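Counts per gene were deposited by the authors as whole numbers, not normalized, for 2 Control LNA and 2 LINC01432 LNA libraries. The submitters' processing notes list bcl2fastq, Salmon 1.10.0, featureCounts 2.0.8 (Subread), STAR 2.7.11b and the GRCh38 build, without role or order. Neither the annotation release nor the strand setting was given in the sources used here. The labels name both poly(A) selection and removal of ribosomal RNA. Rows that name no gene (92 ERCC and 5 transgene rows, at most 4.20e-05% of a library) were left out.

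The 43 genes and all gene lists were chosen with earlier results of these data known. Named were LINC01432, all 43 genes, up to 4 called genes per further list with the smallest p, and SPDL1, though some of these are not reported here; genes beside ZWILCH, 3 NRZ partners and the printed promoters were chosen later. Symbols were looked up by Ensembl ID (61481 of 78932 matched), and positions, exon length, overlap and GC from GENCODE 29 (57356 matched). Groups were compared with edgeR 4.0.16 in R 4.3.3 (quasi-likelihood F test, TMM, no covariate), on genes that passed filterByExpr with a minimum count of 10 and a minimum total of 15; standard errors derive from the F statistic. DESeq2 1.42.0 and limma 3.58.1 (voom) gave alternatives. The common biological coefficient of variation was 7.13%. On simulated counts of this comparison with 18680 genes, 64.5% of 200 genes changed 2-fold were recovered, with 2 false calls. GC trends were lowess curves (span 0.3), entered as offsets.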

Additional observations from a re-analysis of the deposited data

How the results depend on the processing

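ZWILCH was called as lower in all 14 alternatives. The differences between its log2 fold change and those of KNTC1 (-0.83) and ZW10 (-0.75) were -0.79 and -0.69 with GC correction on levels. With the GC trend of deviations they were -0.79 and -0.70. These shifts were smaller than the spread between libraries. The rest of the 7 alternatives tried could hardly show more: library scaling cancels in these differences, and leaving out 1 library moves them by less than that spread. Genes called higher numbered 1401, and 747 and 908 with the GC corrections on levels and on deviations (35.3% and 48.2% of calls higher, against 63.2%), 2245 with the replicate block, and 566 to 2637 when 1 library was left out. Genes called lower numbered 817, and 1369 with GC correction on levels, 1617 with the replicate block, 2500 with the block and GC correction, and 200 to 2591 when 1 library was left out. Of the 43 genes, 1 rose, and 2 with library totals only, 2 with the replicate block and 0 to 4 without 1 library; 6 fell, and 3 with DESeq2, 3 with either GC correction, 11 with the replicate block and 1 to 18 without 1 library. Their median of -0.10 was -0.033 with GC correction, with or without the block, 3.4e-05 with the GC trend of deviations, and -0.15 to -0.090 without 1 library. The fits with fewer libraries take their spread from 1 pair; the cause of the other shifts was not tested. The replicate numbers of the labels are not stated to pair the libraries; same-numbered libraries deviated from their group means with a correlation of 0.13 across genes.

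Of 909 values of single genes under alternatives, 756 kept direction and side of the threshold, 75 lost a call, 34 gained one and 44 changed sign, 2 of these with a call, both for CENPB. With GC correction on levels the sign changed for NDC80 (0.022), BUB3 (0.062), CENPK (0.019), CENPF (0.055), INCENP (-0.11), CDK1 (0.00095), KIF23 (0.018), CENPB (-0.27) and FZR1 (-0.026). With the replicate block and GC correction these 9 genes were, in this order, at 0.021, 0.057, 0.020, 0.054, -0.11, 0.00028, 0.017, -0.27 and -0.027. With the GC trend of deviations it changed for MIS12 (0.0091), DSN1 (0.0022), NDC80 (0.044), BUB3 (0.090), CENPC (0.0068), CENPK (0.037), CENPN (0.0072), CENPF (0.079), INCENP (-0.060), CDK1 (0.018), KIF23 (0.042), TPX2 (3.4e-05), TOP2A (0.0092) and CENPB (-0.19). Among genes of at least 1 CPM, BUB3 was at 0.0054. Over the fits that leave out 1 library, the range spanned 0 for PMF1 (-0.28 to 0.080), BUB3 (-0.098 to 0.046), CENPC (-0.33 to 0.041), CENPF (-0.15 to 0.060), AURKB (-0.013 to 0.31), BIRC5 (-0.028 to 0.12), CDCA8 (-0.11 to 0.043), CCNB1 (-0.037 to 0.059) and AURKA (-0.0076 to 0.054). All these genes but CENPB and FZR1 were not called with all libraries. Of the 43 genes only MAD1L1 had under 100 counts in a library.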
